A study of Danio rerio with 9 samples.

Results

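The genes described here encode the insulin-like growth factors (IGFs) and the IGF binding proteins (IGFBPs) of the zebrafish liver. They are the 10 genes igf1, igf2a, igf2b, igfbp1a, igfbp1b, igfbp2a, igfbp2b, igfbp3, igfbp5a and igfbp5b, taken by symbol from a table of counts for 32520 genes. Poly(A) RNA was sequenced from microdissected livers of wild-type larvae that had been kept for 24 h in vehicle, in 1 mM metronidazole or in 10 mM metronidazole. Each group had 3 libraries. This drug is the prodrug used with transgenic nitroreductase, a bacterial enzyme that converts it to a cell-killing product. The series concerns a system for partial cell ablation and lineage tracing, and no library came from a line with a transgene, so the comparisons concern the drug alone. The labels give neither the age of the larvae nor the number of livers in a library. Nor do they say if the libraries of a group had separate animals or clutches as their source, and the p-values therefore reflect library-to-library spread alone, which may in part be technical.

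As background, IGFs are secreted growth factors that act through a receptor tyrosine kinase related to the insulin receptor. IGFBPs bind the IGFs in blood and tissue, prolong their life there and control how much ligand reaches the receptor. In mammals the liver is the main source of circulating IGF1 under the control of growth hormone, and hepatic IGFBP1 is raised by fasting, glucocorticoids, hypoxia and amino acid shortage and lowered by insulin. Zebrafish carry duplicates of many of these genes, named a and b, and zebrafish igfbp1 genes are known to be induced by hypoxia.

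Library totals ranged from 29.99 to 41.3 M counts, and 16766 genes passed a filter on low counts and were tested. Of the 10 genes, 9 passed that filter and igfbp5a did not. Levels are given in CPM, the counts of a gene scaled to a common library total after adjustment of the totals by TMM factors, which allow a gene to be compared between libraries but not with another gene of different length. One library stood apart on the second principal component of all tested genes (17.4% of the variance), namely 1 mM replicate 3 at -76.8, where the rest ranged from -5.99 to 26.6. The lane in the column names was 8 for 10 mM replicate 3 and 7 for the rest. All 14 hepatocyte markers were detected in every library, and their summed level was 171256 to 181092 CPM in vehicle, 162748 to 227677 CPM at 1 mM and 162268 to 190398 CPM at 10 mM. Pancreatic RNA was present throughout: 13 exocrine markers summed to 8148 to 17479 CPM in vehicle, 6066 to 17932 CPM at 1 mM and 9405 to 19747 CPM at 10 mM. Summed markers of 3 other cell types did not overlap between 10 mM and vehicle, where single genes did not overlap for 40.6% of all tested genes. As single genes, 0 of 10 biliary, 1 of 5 tested muscle and 1 of 9 epidermal markers were called there, against 17.2% of all tested genes. The 10 biliary markers stood at 3594 to 3675 CPM at 10 mM and 3120 to 3398 CPM in vehicle, the 11 muscle markers at 4.82 to 5.03 CPM at 10 mM and 3.07 to 3.61 CPM in vehicle, and the 9 epidermal markers at 225 to 234 CPM at 10 mM and 236 to 327 CPM in vehicle. At 1 mM these sums were 2845 to 4522, 3.91 to 10.2 and 228 to 423 CPM, each highest in 1 mM replicate 3. Sums for macrophages and leukocytes, neutrophils, erythroid cells and gut epithelium overlapped between 10 mM and vehicle. Their part in the results below was not tested.

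In larvae at 10 mM, set against vehicle, the IGF-II duplicates igf2a and igf2b and the binding protein gene igfbp5b fell, and the IGFBP1 duplicates igfbp1a and igfbp1b rose. The remaining tested genes, igf1, igfbp2a, igfbp2b and igfbp3, were not called. Thus 5 of 9 tested genes were called (2 higher, 3 lower; edgeR quasi-likelihood test, Benjamini-Hochberg adjusted over all genes, threshold 0.05), where 17.2% of all tested genes were called, 9.74% higher and 7.43% lower. The median log2 fold change of the 9 genes was -0.40, against -0.03 over all tested genes. Libraries of the 2 groups did not overlap for 6 of the 9 genes, as for 40.6% of all tested genes.

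**Figure D1:**
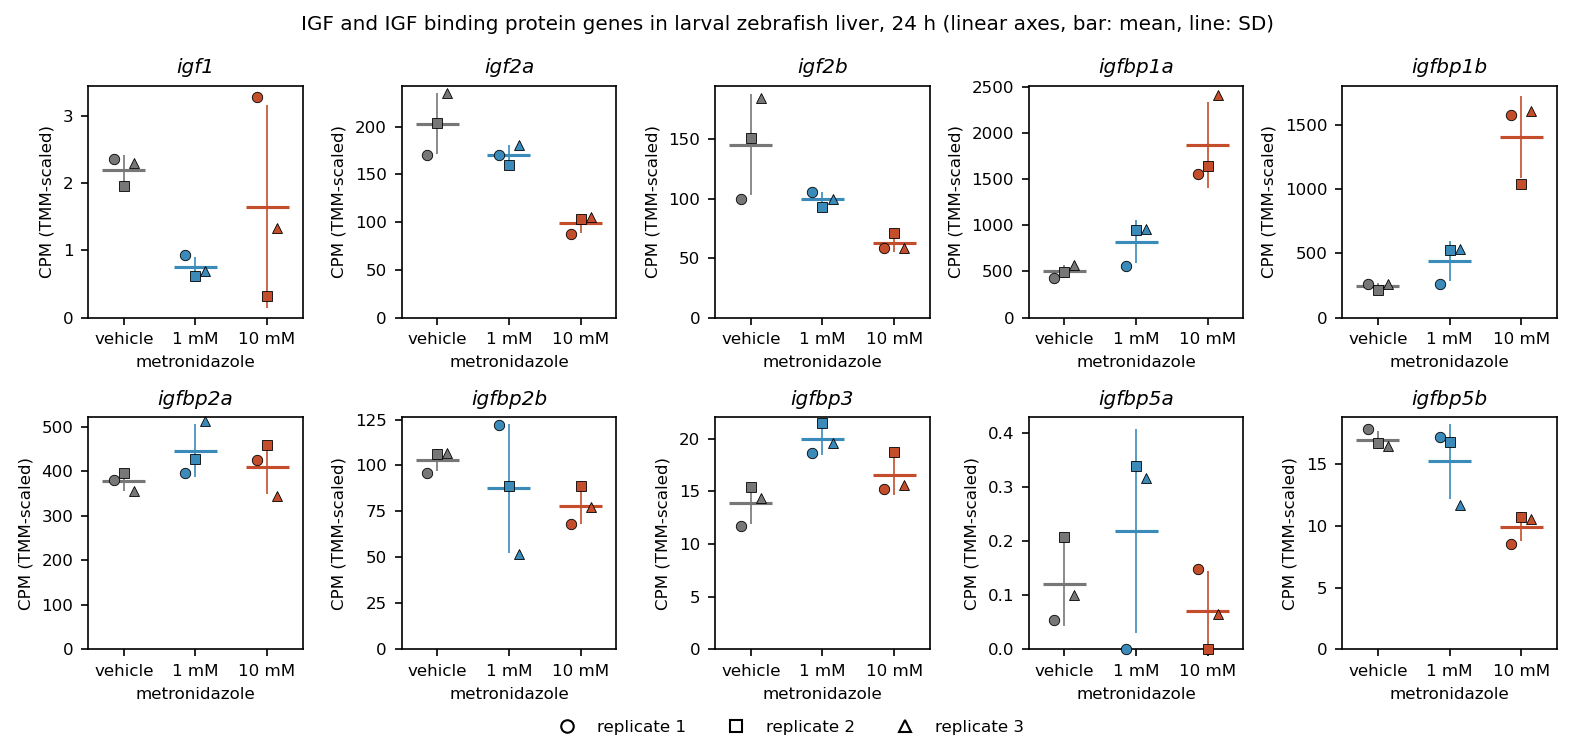
Level of each of the 10 genes in each library, in CPM on linear axes that differ between panels, for vehicle, 1 mM and 10 mM metronidazole. Each marker is 1 library with its shape giving the replicate number, the bar is the mean and the line is the SD (n = 3 per group); igfbp1a and igfbp1b are highest in the 3 libraries at 10 mM, and igf2a, igf2b and igfbp5b are lowest there.

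Among the ligands, igf2a (ENSDARG00000018643), which encodes an IGF-II, a growth factor active in embryonic and larval growth, stood at 171, 203 and 235 CPM in vehicle, at 170.4, 159.7 and 181 CPM at 1 mM and at 87.4, 104 and 106 CPM at 10 mM, in 3 libraries each. The 10 mM libraries were below all 6 others, and the 1 mM and vehicle libraries overlapped. At 10 mM igf2a averaged 98.9 ± 9.96 CPM, against 203 ± 32.1 CPM in vehicle (SD, n = 3 each), and so fell 2.05-fold (log2 -1.04, SE 0.14, edgeR adjusted p = 0.000359). In bulk liver RNA, fewer cells of a type and less RNA per cell cannot be told apart.

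The duplicate igf2b (ENSDARG00000033307) stood at 100.005, 151 and 185 CPM in vehicle, at 105.7, 93.2 and 99.6 CPM at 1 mM and at 58.3, 71.4 and 58.2 CPM at 10 mM. Again the 10 mM libraries were the lowest of the 9, and vehicle replicate 1 lay within the 1 mM range. The gene averaged 62.7 ± 7.61 CPM at 10 mM and 145 ± 42.7 CPM in vehicle (SD, n = 3 each), 2.32-fold lower at 10 mM (log2 -1.21, SE 0.19, edgeR adjusted p = 0.000865). Both igf2 genes were also lower at 10 mM than at 1 mM, igf2a 1.72-fold (log2 -0.78, SE 0.14, edgeR adjusted p = 0.00246) and igf2b by -0.67 on the log2 scale (SE 0.19, edgeR adjusted p = 0.0275). The call of igf2b between the 2 doses was lost when 1 mM replicate 1, 1 mM replicate 2, 10 mM replicate 1 or 10 mM replicate 3 was left out (edgeR adjusted p 0.0505 to 0.106).

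The gene of IGF-I itself, igf1 (ENSDARG00000094132), the growth hormone-dependent ligand, was at a low level. It had 86, 75 and 92 counts in vehicle, 35, 22 and 22 counts at 1 mM and 133, 12 and 41 counts at 10 mM. These correspond to 2.35, 1.95 and 2.29 CPM in vehicle, 0.926, 0.623 and 0.698 CPM at 1 mM and 3.28, 0.323 and 1.33 CPM at 10 mM. The 3 libraries at 10 mM spanned the range of both other groups, whereas the 1 mM libraries all lay below the vehicle libraries. Neither difference from vehicle passed the threshold: the log2 difference was -0.41 at 10 mM (95% interval -1.59 to 0.78, edgeR adjusted p = 0.677) and -1.55 at 1 mM (95% interval -2.80 to -0.29, edgeR adjusted p = 0.299). Between the doses the log2 difference of 1.14 (10 mM against 1 mM) was not called (95% interval -0.12 to 2.40, edgeR adjusted p = 0.207). Without 10 mM replicate 2 that difference was 1.65 and was called (edgeR adjusted p = 0.0178), and the difference of 10 mM from vehicle was then 0.10. Over 16 alternative fits the difference between the doses ranged from 0.12 to 1.65, and only the fit without 10 mM replicate 2 called it. Summed endocrine pancreas markers overlapped between the groups, with the lowest values in 1 mM replicates 2 and 3. By replicate, the 11 genes summed to 4.85, 46.9 and 36.7 CPM in vehicle and 13.2, 0.764 and 1.21 CPM at 1 mM. At 10 mM they summed to 4.37, 16.1 and 46.1 CPM, lowest in 10 mM replicate 1, where igf1 was highest. Their part in the igf1 values was not tested.

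Among the binding proteins, igfbp1a (ENSDARG00000099351) and igfbp1b (ENSDARG00000038666) had the largest changes of the 9 tested genes at 10 mM against vehicle. They encode duplicates of IGFBP1, a short-lived secreted protein that in mammals is made mainly by hepatocytes and limits IGF action. The level of igfbp1a was 434, 499.7 and 566 CPM in vehicle, 555, 950.3 and 963 CPM at 1 mM and 1553, 1648 and 2412 CPM at 10 mM. Every 10 mM library was above every other, and 1 mM replicate 1 lay inside the vehicle range while 1 mM replicates 2 and 3 lay above it. Averages were 1871 ± 471 CPM at 10 mM and 499.9 ± 65.8 CPM in vehicle (SD, n = 3 each), a 3.74-fold rise (log2 1.90, SE 0.23, edgeR adjusted p = 0.00016).

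The level of igfbp1b was 259, 218 and 264 CPM in vehicle, 262, 525 and 531 CPM at 1 mM and 1576, 1036 and 1603 CPM at 10 mM. The libraries fell in the same pattern as for igfbp1a, with 1 mM replicate 1 inside the vehicle range and the other 1 mM libraries above it. Averages were 1405 ± 319.7 CPM at 10 mM and 247 ± 25.3 CPM in vehicle (SD, n = 3 each), and igfbp1b rose 5.69-fold (log2 2.51, SE 0.26, edgeR adjusted p = 5.33e-05). Both genes were also higher at 10 mM than at 1 mM, igfbp1a 2.28-fold (log2 1.19, SE 0.23, edgeR adjusted p = 0.00356) and igfbp1b 3.20-fold (log2 1.68, SE 0.25, edgeR adjusted p = 0.000737).

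Together igfbp1a and igfbp1b took 0.0680, 0.0721 and 0.0848% of all counts in vehicle, 0.0904, 0.155 and 0.131% at 1 mM and 0.307, 0.258 and 0.413% at 10 mM. All 10 IGF and IGFBP genes took 0.331 to 0.475% of all counts at 10 mM and 0.144 to 0.178% in vehicle, so most of the IGF and IGFBP counts at 10 mM came from the IGFBP1 pair. At 1 mM against vehicle, the difference of igfbp1a was 0.72 on the log2 scale (95% interval 0.22 to 1.21, edgeR adjusted p = 0.194) and that of igfbp1b was 0.83 (95% interval 0.29 to 1.37, edgeR adjusted p = 0.168). Neither was called. Without 1 mM replicate 1, the 1 mM library inside the vehicle range, they were 0.93 and 1.09, and both were called (edgeR adjusted p = 0.0367 and 0.0172). Over 17 alternatives igfbp1a ranged from 0.59 to 0.93 and igfbp1b from 0.67 to 1.09, with calls in 2 and 3 of them. Over all genes, 165 were called in the main fit and 21 to 202 with a library left out.

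The third called binding protein gene, igfbp5b (ENSDARG00000025348), encodes a duplicate of IGFBP5, a matrix-associated protein known from bone and muscle. It stood at 17.9, 16.7 and 16.5 CPM in vehicle, at 17.2, 16.8 and 11.7 CPM at 1 mM and at 8.56, 10.7 and 10.6 CPM at 10 mM. The 10 mM libraries were below all others, and 1 mM replicate 3 was the lowest of the other 6. The mean was 9.95 ± 1.21 CPM at 10 mM and 17.0 ± 0.736 CPM in vehicle (SD, n = 3 each), and igfbp5b fell 1.71-fold (log2 -0.77, SE 0.16, edgeR adjusted p = 0.00591). It was also called lower at 10 mM than at 1 mM (log2 -0.62, SE 0.16, edgeR adjusted p = 0.0198), a call that was lost without 1 mM replicate 1, 1 mM replicate 2 or 10 mM replicate 1 and with only the 6 libraries of the 2 doses (edgeR adjusted p 0.0593 to 0.0982). Summed markers of endothelial cells were 258 to 264 CPM at 10 mM and 257 to 270 CPM in vehicle, and those of stellate cells and fibroblasts 147 to 222 CPM at 10 mM and 145 to 184 CPM in vehicle. Both sums overlapped between 10 mM and vehicle. At 1 mM, by replicate, the endothelial sums were 299, 293 and 205 CPM, and the stellate and fibroblast sums 217, 163 and 181 CPM. The endothelial sum of 1 mM replicate 3 was the lowest of the 9 libraries. The part of these cells in the igfbp5b values was not tested.

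Its duplicate igfbp5a (ENSDARG00000039264) was at the limit of detection, with 2, 8 and 4 counts in vehicle, 0, 12 and 10 counts at 1 mM and 6, 0 and 2 counts at 10 mM. It did not exceed 0.340 CPM in any library, and it did not enter the fit of all 9 libraries. It entered 9 of the alternative fits, 8 of which gave an adjusted p. It was called in 0 of them in any comparison (0 also at an unadjusted p under 0.05). The lowest adjusted p was 0.552 at 10 mM against vehicle, 0.582 at 1 mM against vehicle and 0.232 at 10 mM against 1 mM.

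The IGFBP2 duplicates, which encode a binding protein secreted into the circulation, were not called in any comparison. For igfbp2a (ENSDARG00000052470) the libraries stood at 379.8, 396 and 355 CPM in vehicle, 397, 428 and 513 CPM at 1 mM and 424.5, 459 and 343.5 CPM at 10 mM. The 10 mM and vehicle libraries overlapped, and the log2 difference of 0.12 had a 95% interval of -0.21 to 0.44 (edgeR adjusted p = 0.661). For igfbp2b (ENSDARG00000031422) they stood at 96.1, 106 and 107 CPM in vehicle, 122, 88.6 and 52.0 CPM at 1 mM and 68.2, 88.7 and 77.6 CPM at 10 mM. Every 10 mM library was below every vehicle library, and the 1 mM libraries spanned both groups with replicate 3 the lowest of the 9. The log2 difference of igfbp2b at 10 mM against vehicle was -0.40 (95% interval -0.90 to 0.11, edgeR adjusted p = 0.28). It was called when only the 6 libraries of these groups entered the fit, at a difference of -0.40 (edgeR adjusted p = 0.0218).

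The gene igfbp3 (ENSDARG00000099144) encodes the binding protein that in mammals carries most circulating IGF. It stood at 11.7, 15.4 and 14.4 CPM in vehicle, 18.7, 21.5 and 19.6 CPM at 1 mM and 15.3, 18.7 and 15.6 CPM at 10 mM. All 1 mM libraries lay above all vehicle libraries, and the 10 mM libraries lay between, overlapping with both. At 1 mM against vehicle the log2 difference was 0.53 (SE 0.14, 95% interval 0.21 to 0.84) and was not called after adjustment (edgeR adjusted p = 0.13). The difference at 10 mM against vehicle was 0.25 (95% interval -0.06 to 0.57, edgeR adjusted p = 0.265).

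**Figure D2:**
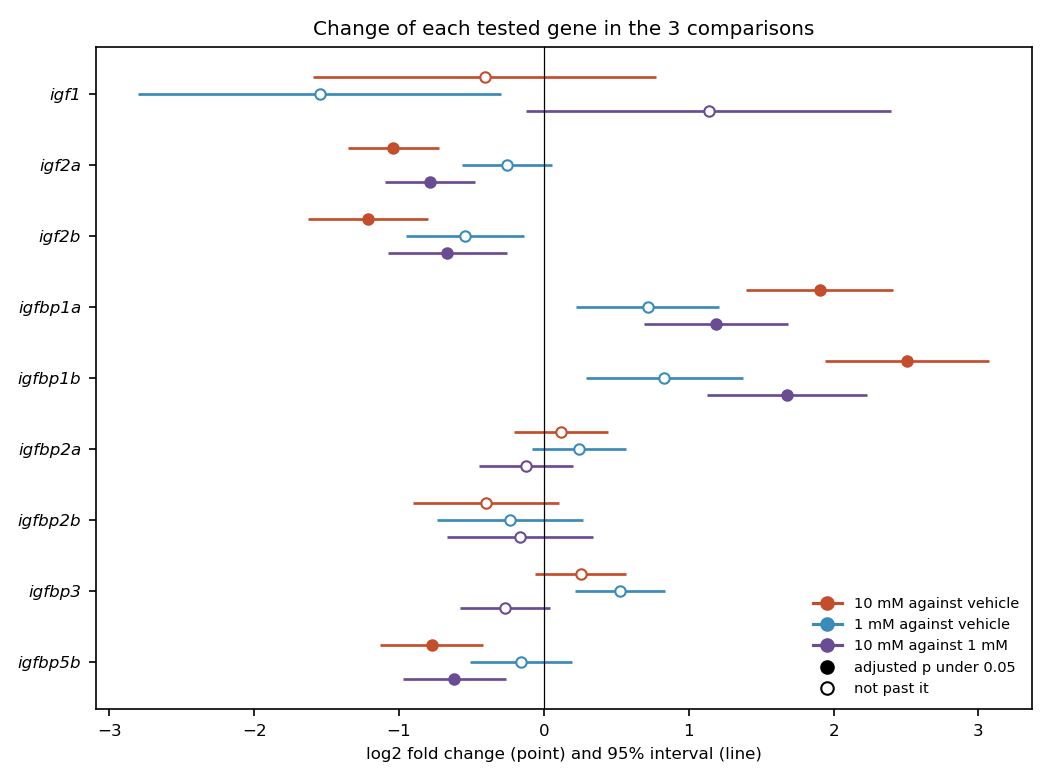
Log2 fold changes of the 9 tested genes at 10 mM against vehicle, 10 mM against 1 mM and 1 mM against vehicle, with lines for the 95% interval and filled points for an edgeR adjusted p under 0.05. In both comparisons that involve 10 mM, 2 points are filled above 0 (igfbp1a, igfbp1b) and 3 below 0 (igf2a, igf2b, igfbp5b), and at 1 mM against vehicle none is filled.

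At 1 mM against vehicle, 0 of the 9 genes were called by the edgeR quasi-likelihood test, where 0.984% of all tested genes were called. At an unadjusted p under 0.05 there were 5, namely igf1, igf2b, igfbp1a, igfbp1b and igfbp3. The number over all genes in that same fit is not given here. In a different fit, with the replicate block, 1704 of all 16766 genes were past that unadjusted p. In the fit with no count filter, 5 of the 10 IGF and IGFBP genes and 2310 of all 24861 genes were past it. The DESeq2 test called 1, igfbp1b, where it called 461 of the 24861 genes with any count. How many of those genes had an adjusted p in DESeq2 is not given here. Groups did not overlap for 3 of the 9 (igf1 lower, igfbp2a and igfbp3 higher), as for 17.7% of all tested genes. The median log2 difference was -0.16, against 0.01 over all tested genes. For each of the 5 genes called at 10 mM against vehicle, the mean at 1 mM lay between the 10 mM and vehicle means. These 5 were picked by the difference between those groups, and the share of all called genes with such a mean was not computed. Of the 5, the nearest to vehicle at 1 mM was igfbp5b, at a log2 difference of -0.16 (95% interval -0.51 to 0.20). Since the comparisons with vehicle share the same 3 vehicle libraries, their values are not independent of each other.

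At 10 mM against 1 mM, 5 of the 9 genes were called, 2 higher (igfbp1a, igfbp1b) and 3 lower (igf2a, igf2b, igfbp5b), where 18.8% of all tested genes were called, 9.39% higher and 9.41% lower. The median log2 difference of the 9 was -0.16, against -0.04 over all tested genes. Without 1 mM replicate 1, without 1 mM replicate 2 or without 10 mM replicate 1, 3 of the genes were called in this comparison. Calls over all genes also fell without 10 mM replicate 1, to 1963 of 17237 genes, from 3153 of 16766 in the main fit. The numbers over all genes without 1 mM replicate 1 or 1 mM replicate 2 are not given here.

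Whether the duplicates of a pair moved by different amounts was asked with the ratio of their counts within each library, which needs no scaling of libraries. The log2 ratio of igfbp1b to igfbp1a was -0.75, -1.197 and -1.10 in vehicle, -1.08, -0.86 and -0.86 at 1 mM and 0.02, -0.67 and -0.59 at 10 mM. The 3 ratios at 10 mM were above all 6 others. On a linear scale igfbp1b had 0.769 ± 0.213 counts per igfbp1a count at 10 mM and 0.4997 ± 0.0844 in vehicle (SD, n = 3 each). The mean log2 ratio was 0.60 higher at 10 mM than in vehicle. An exact permutation test over the 3 groups (n = 3 each, 1680 arrangements, smallest possible p 0.00357) gave p = 0.0286. After Benjamini-Hochberg adjustment over the 3 pairs tested, the exact permutation p was 0.0857, so the test did not pass the threshold. It covers all 3 groups, and 10 mM was not tested against vehicle alone. Without vehicle replicate 1 the test over the 3 groups passed the threshold (exact permutation, adjusted p = 0.0429). The 10 mM minus vehicle difference was then 0.73. With each library left out in turn, that difference was 0.384 to 0.734. The adjusted p over the 3 groups was 0.0429 to 0.386 (exact permutation).

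For igf2a to igf2b the mean log2 ratio was 0.66 ± 0.17 at 10 mM and 0.52 ± 0.23 in vehicle (SD, n = 3 each), a difference of 0.14 (exact permutation p over the 3 groups 0.261, adjusted p = 0.361). For igfbp2a to igfbp2b it was 1.87 ± 0.13 in vehicle, 2.43 ± 0.81 at 1 mM and 2.39 ± 0.25 at 10 mM (SD, n = 3 each), with an exact permutation p of 0.361 (adjusted p = 0.361). The 10 mM ratios all lay above the vehicle ratios, and the widest spread was at 1 mM, where replicate 3 had 9.87 igfbp2a counts per igfbp2b count. The pair igfbp5a and igfbp5b was not tested because igfbp5a failed the count filter. How the authors' counting treated reads that match both copies of a pair is not given in the sources used here, so values of duplicates carry that uncertainty.

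**Figure D3:**
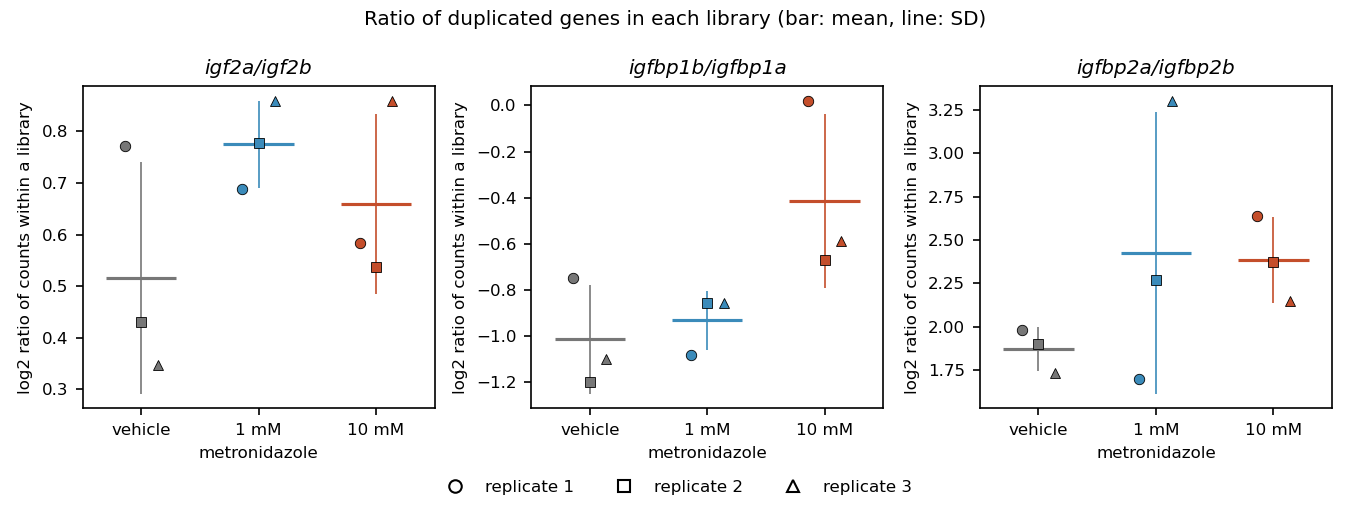
Log2 ratio of the counts of the 2 duplicates of a pair within each library, for igf2a to igf2b, igfbp1b to igfbp1a and igfbp2a to igfbp2b, at vehicle, 1 mM and 10 mM metronidazole. Each marker is 1 library and the bar is the mean of 3; the 3 ratios of igfbp1b to igfbp1a at 10 mM lie above the other 6, those of igf2a to igf2b overlap between the groups, and those of igfbp2a to igfbp2b are most widely spread at 1 mM.

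In the order of coding genes of the RefSeq annotation (assembly GRCz12tu), igfbp3 is next to igfbp1a, igfbp5a is next to igfbp2a, and igfbp2b is next to igfbp5b. At 10 mM against vehicle, the log2 difference was 1.90 for igfbp1a and 0.25 for its neighbour igfbp3, and -0.77 for igfbp5b and -0.40 for its neighbour igfbp2b. Whether neighbours differed from each other was not tested. The duplicate igfbp1b lies between znfl2a and adcy1b, with none of the other 9 genes beside it. Several of these genes have carried each other's names: RefSeq lists igf2b as an older name of igf2a, igfbp2b as an older name of igfbp2a and igfbp5b as an older name of igfbp5a, and the reverse for each.

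The genes with the most similar pattern were ranked by Pearson's r of log2(CPM + 0.5) over the 9 libraries among 12631 genes with a symbol and a mean of at least 1 CPM. Since the 9 libraries fall into dose groups and the 10 mM libraries stand apart, r mainly follows the difference between the groups and is given as a description. For igfbp1b the closest were bzw1b, a translation regulator (r = 0.996), slc7a3a, a cationic amino acid transporter (r = 0.994), and sult3st2, a sulfotransferase (r = 0.993). They averaged 226, 285 and 26.4 CPM at 10 mM, against 20.6, 8.48 and 8.47 CPM in vehicle. For igfbp1a they were dusp4, a MAP kinase phosphatase (r = 0.99), gls2b, a glutaminase (r = 0.98), and yars1, the tyrosyl-tRNA synthetase (r = 0.98), at 13.95, 43.5 and 15.2 CPM at 10 mM, against 3.31, 10.7 and 7.32 CPM in vehicle.

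For igf2a the closest genes were cnp, flr and zdhhc3a (r = 0.98, 0.98 and 0.97). For igf2b they were mier1b, inppl1a, a lipid phosphatase of insulin signalling, and foxa1, a liver transcription factor (r = 0.97, 0.96 and 0.96). For igfbp5b they were ATXN7, slc2a4rg and TNRC6C (r = 0.99 each). Each of these 9 genes was lower at 10 mM than in vehicle, by log2 values between -0.72 (inppl1a) and -1.84 (slc2a4rg). For igf1, whose 10 mM libraries spanned the range of both other groups, the closest were rbms1b, btbd2a and ern1 (r = 0.90, 0.89 and 0.88). None of these was called at 10 mM against vehicle.

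The other IGF family genes added 1 call. The lists of genes from here on were chosen with earlier results of these data known, so their shares of calls are descriptions only. Of igf3, igfbp6a, igfbp6b and igfbp7, igfbp7 was the only one to pass the count filter. It encodes a low-affinity relative of the IGFBPs and rose at 10 mM, to 20.9 ± 1.24 CPM against 13.4 ± 3.65 CPM in vehicle (SD, n = 3 each; log2 0.65, SE 0.18, edgeR adjusted p = 0.0257). The call was lost without vehicle replicate 1, vehicle replicate 3, 10 mM replicate 1 or 10 mM replicate 3 (edgeR adjusted p 0.0615 to 0.115). The gonadal ligand igf3 had 0 counts in every vehicle and 1 mM library and 0, 3 and 5 counts at 10 mM.

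None of the 5 receptor genes was called at 10 mM against vehicle by edgeR or by DESeq2, where edgeR called 17.2% of all tested genes. Their median log2 difference at 10 mM against vehicle was -0.19. Of the 5, 1 (insra) passed an unadjusted p of 0.05 in edgeR. The number over all genes in that same fit is not given here. In a different edgeR fit, without vehicle replicate 2, 4261 of 17274 genes passed it, so the counts are not directly comparable. The IGF1 receptor duplicates differed by -0.19 for igf1ra (95% interval -0.69 to 0.30; 3.88 ± 0.671 CPM at 10 mM and 4.42 ± 0.311 CPM in vehicle; SD, n = 3 each) and by 0.66 for igf1rb (95% interval -0.46 to 1.78). For igf2r, which encodes the receptor that clears IGF-II in mammals, the difference was -0.02 (95% interval -0.65 to 0.61). The insulin receptor gene insra stood at 56.2 ± 2.51 CPM at 10 mM and 69.7 ± 1.03 CPM in vehicle (SD, n = 3 each). Its log2 difference of -0.31 was not called (edgeR adjusted p = 0.121) but was called without 1 mM replicate 3 (edgeR adjusted p = 0.0314) and with only the 6 libraries compared (edgeR adjusted p = 0.0262). Its duplicate insrb differed by -0.34 (edgeR adjusted p = 0.366).

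Of 7 tested genes of IGFBP proteases, their inhibitors and the ternary IGF complex, 2 fell and none rose at 10 mM, with a median of -0.33, where 17.2% of all tested genes were called, 9.74% higher and 7.43% lower. IGFALS (ENSDARG00000037836), the acid-labile subunit that in mammals holds IGF and IGFBP3 in the circulation, stood at 394, 372 and 345 CPM in vehicle, 299, 335 and 315.5 CPM at 1 mM and 213, 214 and 171 CPM at 10 mM. The 3 groups did not overlap. Single genes did not overlap for 40.6% of all tested genes at 10 mM against vehicle. That share was 17.7% at 1 mM against vehicle and 33.7% at 10 mM against 1 mM. IGFALS was not called at 1 mM against vehicle (log2 -0.23, 95% interval -0.51 to 0.06, edgeR adjusted p = 0.567). It averaged 199.3 ± 24.3 CPM at 10 mM and 370.5 ± 24.7 CPM in vehicle (SD, n = 3 each; log2 -0.89, SE 0.13, edgeR adjusted p = 0.000612), and it was also called at 10 mM against 1 mM (log2 -0.67, edgeR adjusted p = 0.00423). The stanniocalcin gene stc2a, whose mammalian counterpart inhibits the protease PAPPA, fell to 1.2001 ± 0.205 CPM at 10 mM, against 2.64 ± 0.446 CPM in vehicle (SD, n = 3 each; log2 -1.13, edgeR adjusted p = 0.0233). That call was lost without vehicle replicate 1, vehicle replicate 3, 10 mM replicate 2 or 10 mM replicate 3 (edgeR adjusted p 0.072 to 0.0917).

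In the growth hormone receptor pathway, 1 of 12 tested genes rose and 3 fell at 10 mM, with a median of -0.32, against the same 17.2% over all tested genes. Without 1 mM replicate 3, 7 of the 12 were called, where 23.4% of all genes tested in that fit were. The growth hormone receptor genes were not called: ghra differed by -0.64 (edgeR adjusted p = 0.0939) and ghrb by -0.37 (edgeR adjusted p = 0.0848). Both genes of suppressors of cytokine signalling that were called fell. The level of socs1a was 1.67 ± 0.689 CPM at 10 mM and 5.72 ± 1.08 CPM in vehicle (SD, n = 3 each; log2 -1.79, SE 0.38, edgeR adjusted p = 0.00602), and that of cish was 21.3 ± 9.76 CPM at 10 mM and 46.0 ± 16.6 CPM in vehicle (SD, n = 3 each; log2 -1.12, SE 0.32, edgeR adjusted p = 0.0321). Libraries of cish overlapped between the groups. The signal transducer stat5b was also lower at 10 mM (log2 -0.55, edgeR adjusted p = 0.0272). The calls of cish, without vehicle replicate 2, vehicle replicate 3, 10 mM replicate 1 or 10 mM replicate 2, and of stat5b, without any one of the 6 libraries, were lost (edgeR adjusted p 0.0765 to 0.155 and 0.0617 to 0.0969). The prolactin receptor gene prlra rose to 2.23 ± 0.713 CPM at 10 mM, against 0.459 ± 0.271 CPM in vehicle (SD, n = 3 each; log2 2.27, edgeR adjusted p = 0.00471).

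Among 44 tested genes of insulin and IGF signalling inside the cell, 8 rose and 4 fell at 10 mM against vehicle, with a median of -0.06, where 17.2% of all tested genes were called. The kinase genes rps6kb1a (S6 kinase) and gsk3ba (glycogen synthase kinase 3 beta) rose, to 21.2 ± 1.14 and 67.9 ± 7.61 CPM at 10 mM, against 9.02 ± 1.22 and 31.2 ± 1.69 CPM in vehicle (SD, n = 3 each; log2 1.23 and 1.12, edgeR adjusted p = 8.98e-05 and 0.000101). Their duplicates were not called. The log2 difference was -0.11 for rps6kb1b, at 18.4 CPM at 10 mM, and 1.31 for gsk3bb, at only 0.353 CPM at 10 mM. A regulatory subunit of PI3 kinase, pik3r3a, rose as well (log2 1.04, edgeR adjusted p = 0.00476), while another, pik3r2, fell (log2 -0.76, edgeR adjusted p = 0.00217). The adaptor gene IRS1, which couples the receptors to PI3 kinase, fell to 5.54 ± 0.20 CPM at 10 mM, against 11.5 ± 0.971 CPM in vehicle (SD, n = 3 each; log2 -1.05, SE 0.18, edgeR adjusted p = 0.00157). The lipid phosphatase gene inppl1a fell (log2 -0.72, edgeR adjusted p = 0.00177). The related adaptor irs2a, named after its values were seen, was higher at 79, 53 and 136 CPM at 10 mM, against 34, 45 and 44 CPM in vehicle (log2 1.11, SE 0.29, edgeR adjusted p = 0.0173). That call was lost without vehicle replicate 1, vehicle replicate 3 or 10 mM replicate 3 (edgeR adjusted p 0.0517 to 0.0829).

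Of 24 tested genes of factors known to act on mammalian IGFBP1, 5 rose and 5 fell at 10 mM against vehicle, with a median of 0.05, again beside 17.2% called over all tested genes. This list too was chosen with earlier results known, so that share is no independent measure for it. The forkhead gene foxo1a (ENSDARG00000099555), whose mammalian product binds the insulin response element of IGFBP1, stood at 57.2, 64.7 and 63.0 CPM in vehicle, 48.9, 59.4 and 49.8 CPM at 1 mM and 254, 189 and 224 CPM at 10 mM. The 10 mM libraries were far above the rest, and the 1 mM and vehicle libraries overlapped. It rose 3.60-fold at 10 mM against vehicle (log2 1.85, SE 0.14, edgeR adjusted p = 1.06e-05). The related genes foxo1b, foxo3a, foxo3b and FOXO4 were not called (log2 0.05, 0.03, 0.22 and -0.07). The bZIP genes cebpb and cebpa rose to 214 ± 36.9 and 56.7 ± 14.3 CPM at 10 mM, against 88.5 ± 10.3 and 25.4 ± 2.27 CPM in vehicle (SD, n = 3 each; log2 1.27 and 1.16, edgeR adjusted p = 0.000173 and 0.00139). The E-box factor usf1, the liver forkhead gene foxa1 and the glucocorticoid receptor gene nr3c1 fell, by -1.33, -0.88 and -0.65 on the log2 scale (edgeR adjusted p = 0.000481, 0.00128 and 0.00406). These are RNA levels of the factors, and their activity was not measured.

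**Figure D4:**
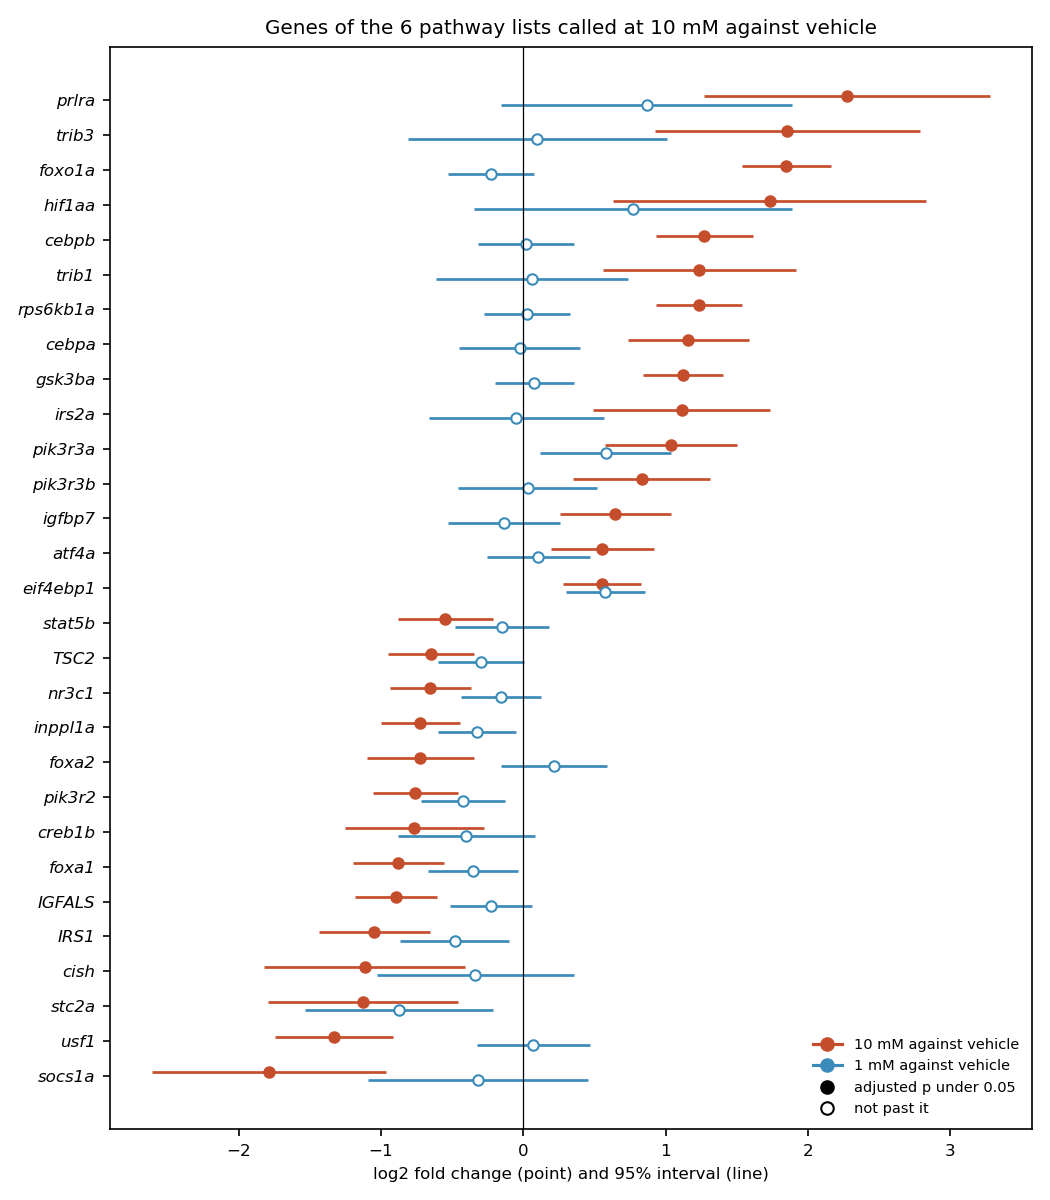
Log2 fold changes of the 29 pathway genes called at 10 mM against vehicle, with lines for the 95% interval. The genes of all lists are ordered together by this value, and the value at 1 mM against vehicle is beside each. The genes lie on both sides of 0 at 10 mM, with prlra highest (2.27) and socs1a lowest (-1.79).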

How the data were processed

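The deposited table holds raw counts of reads per gene, not normalised, which the authors made with HISAT2 and featureCounts on build GRCz11, per the submitters' processing notes. Tool versions, annotation release, strand setting and handling of multiply mapped reads were not given in the sources used here. Even numbers made up 75.2 to 82.9% of a library's counts of 1 to 20 and 48.7 to 51.0% of those over 1000, as when both mates of a pair are counted. Every column of the table was used. A gene's symbol came from the table (20859 genes) or, where missing there, from an Ensembl name list (29182 with both).

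All 9 libraries entered 1 edgeR fit (4.0.16, R 4.3.3) with a mean per group, TMM factors and filterByExpr (minimum count 10, minimum total count 15). Groups were compared by the two-sided quasi-likelihood test with Benjamini-Hochberg adjustment over 16766 genes at 0.05. Standard errors were derived from the fold change and its F statistic, and 95% intervals use the t distribution. Alternatives were DESeq2 (1.42.0), its size factors, other count filters, a replicate block, halved counts, other sets of libraries and, for the pathway lists, 2 left-out libraries picked once the data were known. The edgeR fit, for 10 mM against vehicle, and the permutation test of ratios were tried on simulated data. The other steps were not.

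The genes and the lists of pathway genes (107 of 117 matched) and cell type markers (124 of 131) were chosen with earlier results of these data known. From a pathway list, all genes called at 10 mM against vehicle are named where 5 or fewer were, otherwise the 3 with the smallest p in each direction. The receptors, ghra, ghrb, igf3, irs2a, rps6kb1b, gsk3bb, foxo1b, foxo3a, foxo3b and FOXO4 are named outside that rule, after their values were seen. Same-numbered libraries did not deviate together (correlations -0.17 to 0.103 over 9 pairs, 1 over 0.1), so the numbers were not used as pairs. Sequences were not analysed here.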

Additional observations from a re-analysis of the deposited data

How the results depend on the processing

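Of 27 results (9 genes in 3 comparisons), 16 kept their direction and their side of the threshold under all alternatives. At 10 mM against vehicle 5 genes were called whichever library was left out. The genes called at 10 mM against vehicle numbered 2878 and ranged from 1854 to 4066 when a library was left out, and at 10 mM against 1 mM they numbered 3153 and ranged from 1963 to 3902. At 1 mM against vehicle the 165 genes called became 461 with the DESeq2 test, 487 with no count filter, 96 with a filter of 5 CPM in 3 libraries, 103 with only the 6 libraries compared, 109 with the replicate block and 21 to 202 without a library. The number of IGF and IGFBP genes called at 1 mM against vehicle became 1 with DESeq2, 2 with no count filter and 0 to 2 without a library, and at 10 mM against 1 mM it was 3 to 6 without a library. In 9 of the alternative fits igfbp5a was included, so that 10 genes entered in place of 9. It had an adjusted p in 8 of these fits. The replicate block left 5, 0 and 5 of the genes called in the 3 comparisons, with 2455, 109 and 2626 genes called over all. The difference in log2 ratio of igfbp1b to igfbp1a was 0.384 to 0.734 without a library. Some log2 differences turned direction when a library was left out. At 10 mM against vehicle, igf1 ranged from -1.43 to 0.10 (positive without 10 mM replicate 2) and igf2r from -0.29 to 0.13 (positive without vehicle replicate 3, 10 mM replicate 1 or 10 mM replicate 2). At 1 mM against vehicle, igfbp2b ranged from -0.56 to 0.0302 and igfbp5b from -0.26 to 2.05e-05 (both positive without 1 mM replicate 3). At 10 mM against 1 mM, igfbp2a ranged from -0.196 to 0.00135 (positive without 1 mM replicate 3) and igfbp2b from -0.42 to 0.16 (positive without 1 mM replicate 1). None of these was called, and the cause was not tested. Without 10 mM replicate 3, 9 of 44 genes of insulin and IGF signalling and 7 of 24 factors were called at 10 mM against vehicle, where 11.5% of all tested genes were. Without 1 mM replicate 3 they were 15 and 12, where 23.4% were. Depth limits igfbp5a and igf3, which had at most 12 counts in a library.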
